A study of Mus musculus with 30 samples.

Results

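Late activity-response genes were followed in the striatum and the subventricular zone (SVZ) of mice with and without ablation of endogenous neural precursor cells (eNPCs), namely Inhbb, Inhba, Nptx2, Vgf, Homer1, Scg2, Nrn1 and Pcsk1. They were taken by name, 8 of the 50508 genes in the striatum table and of the 53278 genes in the SVZ table, and all 8 were listed and passed the filter on low counts in both tissues. The set was selected on the difference of Inhbb between ablated and control mice in the striatum, where it was low, so its values in that comparison, and those of the genes listed with it, are given as a description and without a test. The comparisons among control mice in the striatum, and every comparison in the SVZ, were not used to choose Inhbb and were tested. They are not independent of the choice, since the 8 genes were taken with earlier results of these data known and both tissues came from the same mice.

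Late activity-response genes are switched on in neurons after synaptic activity, downstream of a first wave of transcription factors such as Fos, Egr1 and Npas4, and many of them encode secreted or synaptic proteins. Inhba and Inhbb encode the beta subunits of activins, dimeric ligands of the TGF-beta family that signal through Acvr receptors and Smad2 and Smad3, with follistatin (Fst) as a binding inhibitor. Scg2 and Vgf encode precursors of secreted peptides carried in dense-core vesicles, Pcsk1 a convertase that cuts such precursors, Nptx2 a pentraxin that clusters AMPA receptors, Nrn1 a membrane-anchored protein that promotes neurite growth, and Homer1 a scaffold of the postsynaptic density with a short, activity-induced form.

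RNA was measured by sequencing in both tissues of the same 15 C57Bl/6 mice, 1 library per mouse and tissue. The NestinTK+ mice carried a viral thymidine kinase under the enhancer of the second Nestin intron, which makes dividing Nestin-expressing cells sensitive to ganciclovir (GCV), and NestinTK- mice lacked it. GCV or the vehicle PBS had been given for 4 weeks from a subcutaneous minipump, to adult mice of both sexes per the study's methods. NestinTK+PBS+ mice therefore carried the transgene without the drug and NestinTK-GCV+ mice received the drug without the transgene. The enzyme acts on any dividing cell in which the enhancer is active, in the SVZ or elsewhere. There were 5 NestinTK+GCV+ mice (libraries A1 to A5), in which eNPCs were ablated, and 10 controls, namely 3 NestinTK-GCV+ (G1 to G3), 4 NestinTK+PBS+ (T1 to T4) and 3 NestinTK-PBS+ mice (P1 to P3). The number in a library name only follows the order of deposition, and the same name marks the same mouse in both tissues. The mouse numbers fell into 2 series. P1 to P3, G1 and T3 belonged to the lower series, and all other mice, among them A1 to A5, to the higher one. Comparisons with NestinTK-PBS+ mice are therefore largely or wholly mixed with the number series. Levels are given in CPM, the counts of a gene scaled to a common library total, and differences as log2 fold changes with their SE from edgeR. A gene was called at an unadjusted p of at most 0.01 together with at least a 2-fold change, by the quasi-likelihood test of edgeR, and adjusted p-values were computed over all genes of a tissue.

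Striatum libraries held 2626962 to 4693441 counts and SVZ libraries 8360810 to 21056005, so that 1 CPM is a few counts in the striatum. In the SVZ 5 of 6 neuroblast markers were called lower in NestinTK+GCV+ mice, with summed levels of 57.2 to 180.3 CPM against 147.9 to 533.4 CPM in controls. The labels describe the SVZ samples as neural precursor cells, yet the 7 spiny neuron markers summed to 2411 to 8214 CPM there, so that the SVZ libraries were those of a mixed tissue. Several libraries stood apart. In the striatum G3 and T2 held the most cortical excitatory neuron markers (624.5 and 365.4 CPM over 7 genes) and T4 the fewest spiny neuron markers (3104 CPM, against 5523 to 8117 CPM in the others). In the SVZ A2 and G3 held the most cortical markers (560.8 and 743.9 CPM), and over 1% of the counts of T1, P1 and P2 came from Ttr, a choroid plexus gene. For several results that rest on these libraries, values without them are also given.

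The genes lie apart in the genome (GRCm38, GENCODE annotation), Inhbb at chr1:119415465-119422248 and Scg2 at chr1:79434669-79440120, both on the minus strand, Inhba at chr13:16011851-16031621 and Pcsk1 at chr13:75089826-75134861, both on the plus strand. Exons of Nrn1 (chr13:36725361-36735131, minus strand) share 501 bases with exons of Fars2 on the opposite strand, and reads from these bases cannot be assigned to either gene, as the sources used here do not give the strand setting. No other gene of the 8 shared exon bases with another gene.

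The RefSeq promoter table of GRCm38.p6 held 5 of the 8 genes, with 2 start sites for Homer1. The 250 bases before each start were searched on both strands for the cyclic AMP response element TGACGTCA, the site of the activity-regulated factor CREB, for its core TGACG, which the full element contains, and for the AP-1 motif TGANTCA. The 3 stretches below are shown because they carry the element or its core, in capitals.

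Scg2 (chr1:79440073-79440102, minus strand): tgagccggTGACGTCAgcgtggaatgcgga

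Pcsk1 (chr13:75089771-75089800, plus strand): ggtagatcTGACGTCAagagatggctttcg

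Homer1, first start (chr13:93303697-93303726, plus strand): aagcTGACGtgagcggagggTGACGtatgt

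The full element began 68 bases before the RefSeq start of Scg2 and 78 bases before that of Pcsk1, and 1.55% of all 32851 promoters in the table held it. The RefSeq starts differ from the GENCODE spans. The stretches of Scg2 and Homer1 lie within the GENCODE spans of these genes (chr13:93299635-93405129 for Homer1), and that of Pcsk1 lies before its span. Cores outside a full element began 56, 40 and 14 bases before the first start of Homer1 and 50 bases before that of Pcsk1, while 17.8% of all promoters held a core. None of these letters were found in the window of Inhbb, Inhba or the second start of Homer1, and the AP-1 motif, held by 6.75% of all promoters, was found in none of the 6 windows. The search describes letters only and does not show binding.

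Ablated and control mice were compared first in the striatum. Inhbb, the activin beta B subunit, was the only member that was lower in every ablated library than in every control library. Its counts were 3, 2, 3, 1 and 3 in A1 to A5, or 1.09, 0.749, 1.14, 0.297 and 0.974 CPM. In NestinTK-GCV+ mice the levels were 3.46, 1.69 and 1.37 CPM, in NestinTK+PBS+ mice 2.75, 3.24, 1.51 and 5.34 CPM, and in NestinTK-PBS+ mice 2.42, 5.54 and 1.46 CPM. The highest ablated library, A3 with 1.14 CPM, held 3 counts and the lowest control, G3 with 1.37 CPM, held 6, so that the groups were set apart by few reads. Of all genes tested, 0.136% were lower in this way, and no member was higher in every ablated library (0.37% of all genes were).

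The mean level of Inhbb was 0.85 ± 0.345 CPM (SD, n = 5) in ablated and 2.88 ± 1.54 CPM (SD, n = 10) in control mice, a log2 difference of -1.78 (SE 0.52). Summed over libraries, 12 counts stood against 114, which made Inhbb 3.43-fold lower, with a 95% interval of 1.89 to 6.83 that covers counting error only. Inhbb was the 1 member of 8 that met the criteria of a call, where 0.24% of all 15419 genes tested were called lower and 0.454% higher. Because this comparison chose the gene, nothing is read from that count or from the interval, which is not a test. The call was lost with limma-voom (log2 difference -1.55) and with NestinTK-GCV+ mice as the only controls (-1.42). In bulk tissue, fewer cells that express Inhbb and less Inhbb RNA per cell cannot be told apart.

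Against each control group apart, with the ablated libraries shared by all 3 comparisons, the log2 difference of Inhbb was -1.40 (SE 0.67) against NestinTK-GCV+, -1.91 (SE 0.61) against NestinTK+PBS+ and -1.92 (SE 0.64) against NestinTK-PBS+ mice. No member was called against NestinTK-GCV+ mice (0.233% of all genes lower, 1.87% higher), and Inhbb alone met the criteria against NestinTK+PBS+ (0.61% and 0.739%) and NestinTK-PBS+ mice (0.324% and 0.739%). As the same ablated libraries chose Inhbb, these counts are a description and nothing is read from them. Against NestinTK+PBS+ mice the criteria were not met with limma-voom (-1.69), without the libraries rich in cortical markers (-1.89, or -1.38 without T4 as well) or without A4 (-1.67) or T4 (-1.59). Against NestinTK-PBS+ mice they were not met with limma-voom (-1.67), with the mouse number series as a term (-1.93) or without A2 (-1.88), A4 (-1.68) or P2, the control with the most Inhbb (-1.19). No ablated mouse shared the number series of the NestinTK-PBS+ mice, so that group and series cannot be told apart between these groups alone. The ratios of summed counts were 2.56-fold (1.25 to 5.56), 3.71-fold (1.93 to 7.7) and 3.92-fold (2.03 to 8.18) lower, in the same order. These intervals cover counting error only, not the spread between mice, and nothing is read from them. The difference between ablated and control mice kept its direction when the libraries rich in cortical markers, or these and the one poor in spiny neuron markers, were left out, and over all 25 alternatives it ranged from -1.90 to -1.42. The interaction of transgene and GCV was -1.39 (SE 0.90) for Inhbb and 0.77 (SE 0.26) for Scg2, with no member called where 1.15% of all genes were called lower and 2.13% higher.

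**Figure D1:**
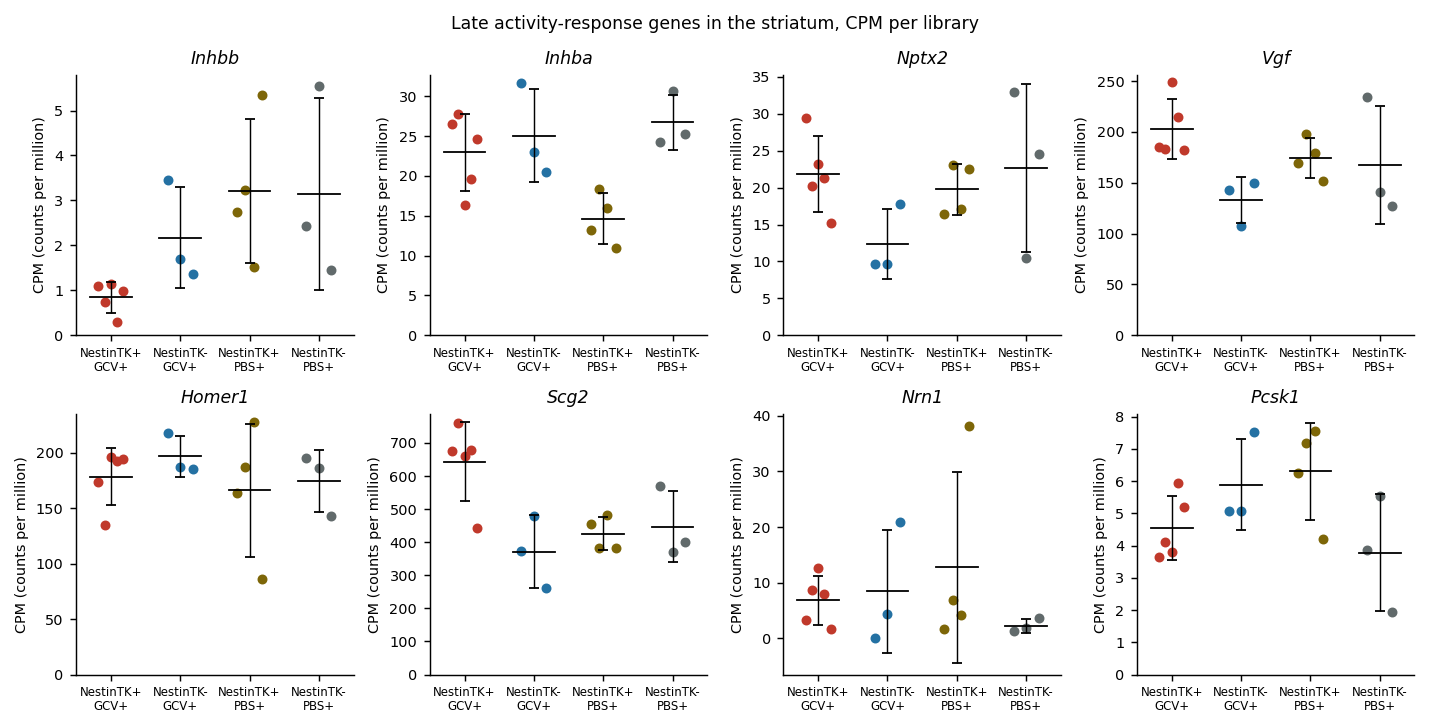
Level of each of the 8 genes in the striatum in CPM (vertical axes, linear, 1 scale per gene), with 1 point per library, a line at the group mean and bars of 1 SD. The 5 NestinTK+GCV+ libraries lie below all control libraries for Inhbb (at most 1.14 against at least 1.37 CPM), overlap them for the other 7 genes, and reach above all controls in 4 of 5 libraries for Scg2.

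Inhba, the activin beta A subunit, did not follow Inhbb in the striatum. It stood at 26.5, 27.7, 16.4, 19.6 and 24.7 CPM in A1 to A5. Control libraries ranged from 11 to 31.7 CPM with a median of 21.7 CPM, and the groups overlapped. The log2 difference was 0.05 (SE 0.22), and its sign changed when single libraries were left out.

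The other genes of activin signalling were taken as a list chosen with earlier results known. Of the other ligand subunits Inha and Gdf11 passed the filter, 0 of 2 was called, 1 having an unadjusted p under 0.05, and Inha, the alpha subunit that turns activins into inhibins, had a log2 difference of 0.67 (SE 0.28, edgeR adjusted p = 0.386), with 8.01 to 13.6 CPM in ablated and 1.97 to 13.3 CPM in control libraries. Gdf11 was at -0.18 (SE 0.27). None of 5 receptors was called, with 2 at an unadjusted p under 0.05, namely Acvr1b (0.44, SE 0.20) and Acvr1c (-0.34, SE 0.14), which encode type I receptors. None of 5 inhibitors was called or had an unadjusted p under 0.05, Bambi being at -0.92 (SE 0.68) and Fst at 0.43 (SE 0.36). Among the signal carriers Smad2, Smad3 and Smad4 and the protease Furin none was called either, with 1 at an unadjusted p under 0.05, Smad3 at 0.40 (SE 0.18) and Smad2 at 0.21 (SE 0.21). DESeq2 and limma-voom called none of these genes either. The share of all genes with an unadjusted p under 0.05 was not counted for ablated mice against pooled controls in the striatum. Nothing is therefore read from such counts, here or in the further striatum lists of this comparison. The medians of the receptor and signal lists were -0.01 and 0.09, beside 0.00 for all genes.

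Of the secreted peptide precursors, Scg2 (secretogranin II) had the largest difference above 0 of the members. It stood at 676.9, 760.8, 659.3, 678.7 and 441.7 CPM in A1 to A5. NestinTK-GCV+ mice had 372.2, 480.6 and 262.6 CPM, NestinTK+PBS+ mice 454.1, 383.4, 481 and 382.6 CPM, and NestinTK-PBS+ mice 570.6, 371.8 and 399.6 CPM. Of the 5 ablated libraries 4 lay above every control, while A5 lay within the control range. The log2 difference was 0.57 (SE 0.14), which is under 2-fold, and it was 0.71 (SE 0.19) against NestinTK-GCV+, 0.54 (SE 0.17) against NestinTK+PBS+ and 0.49 (SE 0.18) against NestinTK-PBS+ mice.

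Vgf, the precursor of several neuropeptides, was at 185.3, 183.5, 249.3, 214.5 and 182.2 CPM in A1 to A5, against 107.1 to 234 CPM in controls (median 150.4 CPM), so that A3 lay above the highest control and the other 4 within the control range. All ablated libraries lay above the 3 NestinTK-GCV+ libraries, whose levels were 143, 107.1 and 149.6 CPM, and they overlapped the other control groups. How many of all genes lay apart from the NestinTK-GCV+ libraries in this way was not counted. The log2 difference from pooled controls was 0.29 (SE 0.14).

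Pcsk1, the prohormone convertase that cleaves such precursors, was scarce, with 3.63, 4.12, 3.81, 5.93 and 5.2 CPM in A1 to A5, or 10 to 20 counts, and 1.94 to 7.55 CPM in controls. Its log2 difference was -0.30 (SE 0.31). Of 12 other granins and processing genes of dense-core vesicles, 11 had log2 differences below 0 and none was called by edgeR, DESeq2 or limma-voom, with 1 at an unadjusted p under 0.05 (median -0.12). The largest were Cadps (-0.49, SE 0.20), a priming factor of dense-core vesicle release, and its relative Cadps2 (-0.26, SE 0.42).

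Among the synaptic members, Nptx2 was at 29.4, 20.2, 23.2, 21.4 and 15.3 CPM in A1 to A5 and at 9.59 to 32.9 CPM in controls (median 17.4 CPM), with a log2 difference of 0.21 (SE 0.24) that was 0.71 with NestinTK-GCV+ mice as the only controls. Homer1 was at 173.7, 134.8, 196.4, 192.2 and 193.9 CPM against 85.7 to 227.8 CPM (median 186.4 CPM), a log2 difference of -0.05 (SE 0.17). The groups overlapped for both genes. The counts are per gene, so that the short form of Homer1 was not measured apart from the long ones.

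Nrn1 was at 3.27, 8.61, 12.6, 8.01 and 1.62 CPM in A1 to A5. In controls it ranged from 0 in G1 to 38.2 CPM in T4, with a median of 3.87 CPM. The log2 difference of -0.31 (SE 0.71) rested on T4 and the libraries with cortical markers, since without G3, T2 and T4 it was 1.39. The 4 libraries with the highest Nrn1, namely T4, G3, A3 and A2 (38.2, 21, 12.6 and 8.61 CPM), had summed cortical markers of 143.9, 624.5, 159.5 and 60.3 CPM, while the 3 NestinTK-PBS+ libraries, with 1.21, 1.92 and 3.64 CPM of Nrn1, had 29.1, 18.3 and 18.9 CPM. T2, with 365.4 CPM of cortical markers, held 6.83 CPM of Nrn1, less than A4 (8.01 CPM). All 7 cortical markers had log2 differences below 0 between ablated and control mice (median -0.63) and none was called, and their part in the values of Nrn1 was not tested.

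**Figure D2:**
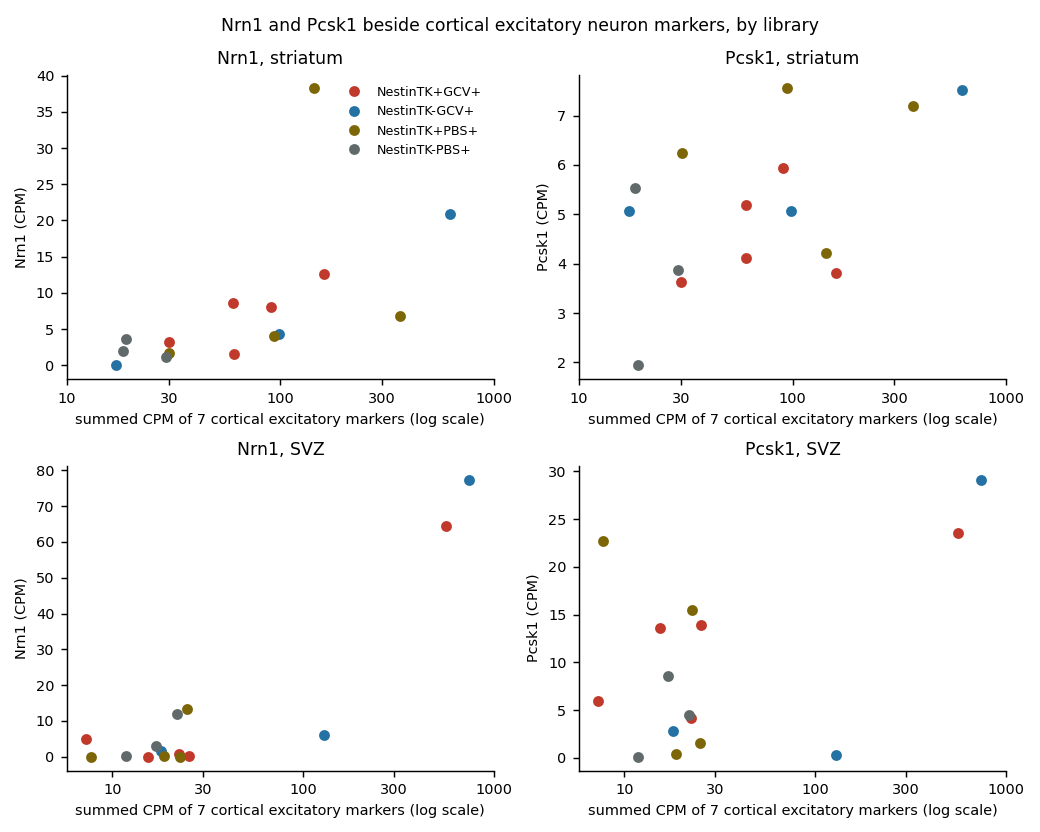
Levels of Nrn1 and Pcsk1 in CPM (vertical axes) against the summed CPM of 7 cortical excitatory neuron markers (horizontal axes, log scale), 1 point per library, in the striatum (top) and SVZ (bottom). In the SVZ the libraries A2 and G3, with 560.8 and 743.9 CPM of cortical markers, hold the highest Nrn1 (64.4 and 77.4 CPM) and Pcsk1 (23.6 and 29.1 CPM). Yet T3, with 7.72 CPM of cortical markers in the SVZ, holds 22.7 CPM of Pcsk1. In the striatum Nrn1 is highest in T4 and G3.

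Related synaptic genes were likewise not called in the striatum by edgeR, DESeq2 or limma-voom, with 1 at an unadjusted p under 0.05 in each of the 2 lists. Of 6 other pentraxins and AMPA receptor subunits, 3 were below and 3 above 0 (median -0.01), with Nptx1 at -0.89 (SE 0.42) and the pentraxin receptor gene Nptxr at -0.56 (SE 0.28). Of 8 other Homer genes and partners, 4 lay on each side (median 0.04), with Shank3, a postsynaptic scaffold, at -0.41 (SE 0.15) and Homer2 at -0.40 (SE 0.20). Over the 8 members the median log2 difference was -0.001, with 4 below and 4 above 0, so that the members lay evenly on both sides.

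Immediate early genes, which respond to activity before the late ones, had log2 differences below 0 in 13 of 14 cases in the striatum of ablated mice, with a median of -0.22. None was called by edgeR, DESeq2 or limma-voom, and 1, Arc, had an unadjusted p under 0.05. Arc, which regulates AMPA receptor traffic, was at -0.62 (SE 0.26, edgeR adjusted p = 0.388), Fos at -0.77 (SE 0.47), Egr1 at -0.19 (SE 0.21) and Npas4 at -0.04 (SE 0.40). These values moved with single libraries. Without P1, Arc, Fos and Egr1 were at -0.47, -0.53 and -0.02, and without A5 at -0.91, -1.05 and -0.33. Egr2 was called only against NestinTK-PBS+ mice, at -1.39 (SE 0.45, edgeR adjusted p = 0.33), and it was not called without A1, A2, A3 or A4 (-1.38 to -1.31) or without P1 (-0.50), nor with limma-voom or with the mouse number series as a term (-1.23).

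Of 14 other late activity-response genes and striatal neuropeptide genes, 2 were called higher and none lower, beside 0.454% and 0.24% of all genes. This list was chosen with earlier results of these data known, so that its calls are no independent evidence. Nts, the precursor of neurotensin, rose to 12, 22.1, 25.5, 24.3 and 6.17 CPM in A1 to A5, against 2.93 to 14.5 CPM in controls (median 5.04 CPM), with A1 and A5 below the highest control, G2. Its log2 difference was 1.57 (SE 0.32, edgeR adjusted p = 0.0392), and the call held in all 25 alternatives, where the difference ranged from 1.25 to 1.84. Crh, which encodes corticotropin-releasing hormone, was at 26.5, 41.6, 14.1, 20.8 and 15.3 CPM against 3.24 to 22.2 CPM, a log2 difference of 1.04 (SE 0.32, edgeR adjusted p = 0.203). The call of Crh held in 17 of the 25 alternatives, and not without A1, A2, T3, G1 or P3 (0.75 to 1.00), with the mouse number series as a term in the fit (0.59), with mice of the number series 40 only (0.57) or with NestinTK-GCV+ mice as the only controls (0.72). Against each control group Nts was at 1.28 (NestinTK-GCV+), 1.77 (NestinTK+PBS+) and 1.64 (NestinTK-PBS+) and called each time, but not against NestinTK-GCV+ mice without A2, A3, A4, G1 or G3 (0.92 to 1.19), nor against NestinTK-PBS+ mice with the mouse number series as a term (0.88). Crh was called against NestinTK-PBS+ mice alone of the 3 groups (1.44, SE 0.45, edgeR adjusted p = 0.305), and not without A2 (1.15), P1 (1.48) or P3 (1.15) or with the mouse number series as a term (-0.21). Against pooled controls all 5 oligodendrocyte markers had log2 differences below 0 (median -0.63) and so had the 7 spiny neuron markers (median -0.19). None was called. Of the oligodendrocyte markers 4 had an unadjusted p under 0.05 and 1 an adjusted p under 0.05 in edgeR. Of the spiny neuron markers 1 had an unadjusted p under 0.05. Against NestinTK-GCV+ mice 3 oligodendrocyte markers lay below 0 and 2 above. Summed oligodendrocyte markers were 1867 to 2496 CPM in ablated and 1859 to 5512 CPM in control libraries, and spiny neuron markers 5523 to 6508 and 3104 to 8117 CPM, and their part in these results was not tested.

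GCV without the transgene was examined by setting NestinTK-GCV+ against NestinTK-PBS+ mice. Only G1 shared the mouse number series of P1 to P3, so that GCV was largely mixed with the series here. No member was called in the striatum, where 1.8% of all genes were called lower and 0.662% higher, and neither DESeq2 nor limma-voom called one. Of the members only Nptx2 had an unadjusted p under 0.05, as did 9.08% (lower) and 7.05% (higher) of all genes. It stood at 9.59, 9.67 and 17.8 CPM in G1 to G3 and at 32.9, 10.4 and 24.5 CPM in P1 to P3, which overlap, with a log2 difference of -0.81 (SE 0.33, edgeR adjusted p = 0.206). Without G3 and T2, the libraries rich in cortical markers, Nptx2 was called at -1.18, as it was without G3 alone (-1.18) or P2 alone (-1.15), and without P1 it was at -0.45.

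Inhbb differed between these groups by -0.52 (SE 0.65, edgeR adjusted p = 0.762), with all 3 NestinTK-GCV+ libraries inside or below the range of the NestinTK-PBS+ ones, and the sign changed without P2 (0.21). Scg2 was at -0.22 (SE 0.20) and Vgf at -0.28 (SE 0.20), the sign opposite to that seen in ablated mice for both. Nrn1 was at 1.96 (SE 0.99), with 0, 4.35 and 21 CPM in G1 to G3, and was called without G1 (2.53) but at 0.029 without G3. The 7 cortical markers had a median log2 difference of 4.07 with 4 of them called higher. The median of the 8 members was -0.14, beside 0.01 for all genes.

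Of the list genes 4 were called in this comparison, where 1.8% of all genes were called lower and 0.662% higher. Nptxr was higher at 1.22 (SE 0.32, edgeR adjusted p = 0.0455), Cadps2 at 1.77 (SE 0.51) and Bdnf, a neurotrophin, at 4.33 (SE 1.35, against libraries at or near 0), and the immediate early gene Nr4a1 was lower at -1.44 (SE 0.45). The higher levels of Nptxr, Cadps2 and Bdnf rested on G3: their calls were lost without it, at 0.54, 1.27 and 0.68, and G3 alone held 14.3 CPM of Bdnf where the other 5 libraries had at most 0.725 CPM. The call of Bdnf was also lost without P1 or P3 (3.82 and 3.83). For Nr4a1 the call was lost with DESeq2 and limma-voom and without G2, G3 or P1 (-0.27 without P1), whose 110 CPM stood against 14.7 to 30.6 CPM in the other 5. Against ablated mice the same NestinTK-GCV+ libraries made Nptx1 (-1.50, SE 0.45) and Nptxr (-1.08, SE 0.28) lower and the receptor gene Acvr1b (1.02, SE 0.24, edgeR adjusted p = 0.0217) higher in ablated mice, and without G3 Nptx1 and Nptxr were at -0.71 and -0.40 and not called, nor was Nptxr without A1 (-0.99). The call of Acvr1b was lost with A1, A3, G1 or G2 left out (0.86 to 0.97).

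In the interaction of transgene and GCV in the striatum 5 list genes were called lower, where 1.15% of all genes were called lower and 2.13% higher. Nptxr was at -1.73 (SE 0.41, edgeR adjusted p = 0.0466), Nptx1 at -1.91 (SE 0.67), Bdnf at -4.56 (SE 1.62), Cadps at -1.01 (SE 0.35) and Cadps2 at -2.11 (SE 0.66). Without G3 and T2, the libraries rich in cortical markers, none of the 5 was called, and they were at -0.75, -0.57, -0.78, -0.88 and -1.51 in the same order. Without G3 alone Nptx1, Bdnf, Cadps and Cadps2 were at -1.13, -0.92, -0.78 and -1.61 and not called, while Nptxr was at -1.05 and called. With limma-voom these 4 were not called either.

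The transgene without GCV was examined by setting NestinTK+PBS+ against NestinTK-PBS+ mice. Only T3 shared the mouse number series of P1 to P3, so that the transgene was largely mixed with the series here. No member was called in the striatum by edgeR, DESeq2 or limma-voom, where 0.188% of all genes were called lower and 0.642% higher, and 2 members, Inhba and Nrn1, had an unadjusted p under 0.05, as did 2.46% (lower) and 3.94% (higher) of all genes. Inhba was at 13.2, 18.3, 16 and 11 CPM in T1 to T4 and at 24.2, 30.7 and 25.2 CPM in P1 to P3, so that the groups did not overlap. The log2 difference was -0.86 (SE 0.24, unadjusted p = 0.00136, edgeR adjusted p = 0.675), under 2-fold. All 3 NestinTK-GCV+ libraries, with 20.5 to 31.7 CPM, also lay above the 4 NestinTK+PBS+ ones. The share of all genes apart between these small groups was not counted, so that nothing is read from the lack of overlap.

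Inhbb did not differ detectably between these groups (log2 difference 0.00, SE 0.58), and Homer1, Vgf, Scg2 and Nptx2 were within 0.18 of 0. Nrn1 was at 2.43 (SE 0.94, edgeR adjusted p = 0.748), was called without T1, T3, G1 or G3 (2.43 to 2.80) and was at 0.89 without T4, while Pcsk1 was at 0.73 (SE 0.40), and the 7 cortical markers had a median of 3.15 with 3 called higher. The median over the 8 members was -0.03, beside 0.00 for all genes. No gene of the other lists was called by edgeR, DESeq2 or limma-voom, and 9 of them had an unadjusted p under 0.05 in edgeR.

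**Figure D3:**
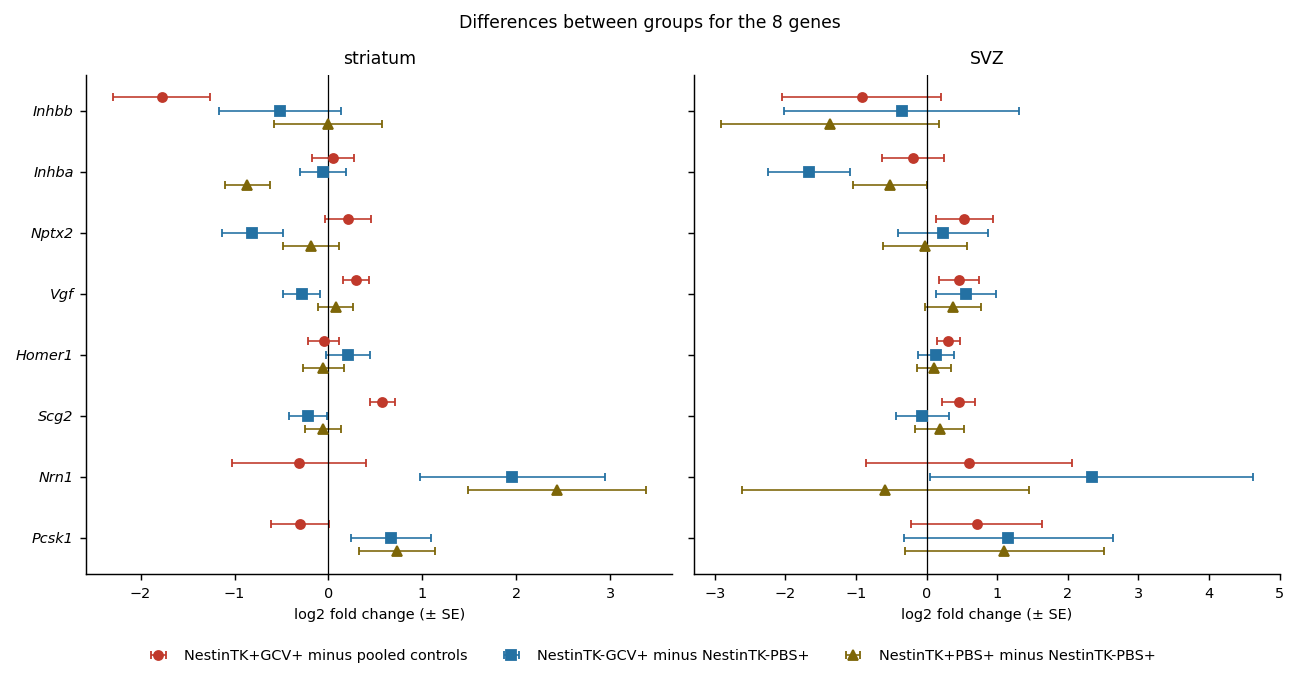
Log2 fold change of the 8 genes (horizontal axes, bars of 1 SE) in the striatum (left) and SVZ (right) for ablated mice minus pooled controls, NestinTK-GCV+ minus NestinTK-PBS+ and NestinTK+PBS+ minus NestinTK-PBS+ mice. Inhbb lies at -1.78 in the ablated striatum, in the comparison that chose it. It lies at -0.52 (SE 0.65) and 0.00 (SE 0.58) in the comparisons among controls. The SE of Inhbb, Nrn1 and Pcsk1 in the SVZ are 0.93 or more.

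In the SVZ, whose libraries had not been used to choose Inhbb but came from the same mice, no member differed detectably between ablated and control mice. None of the 8 was called by edgeR, DESeq2 or limma-voom and none had an unadjusted p under 0.05 in edgeR (1 had in DESeq2 and 1 in limma-voom). Of all 16375 genes 1.22% were called lower and 0.373% higher, and 6.09% (lower) and 3.73% (higher) had an unadjusted p under 0.05. No member was apart from all controls, as 0.232% of genes were below and 0.0305% above. Of the 8 members 6 had log2 differences above 0, with a median of 0.46 beside -0.03 for all genes.

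Inhbb was at 0.563, 3.91, 0.119, 3.65 and 0.598 CPM in A1 to A5, or 5, 33, 1, 35 and 5 counts. NestinTK-GCV+ mice had 2.28, 7.98 and 2.48 CPM, NestinTK+PBS+ mice 1.56, 1.80, 0.121 and 5.47 CPM, and NestinTK-PBS+ mice 0.0754, 1.71 and 14.4 CPM. Libraries of 1 group thus differed from 1 to 129 counts, and the ablated libraries lay inside the control range. The log2 difference was -0.92 (SE 1.12, edgeR adjusted p = 0.869), and it was -0.09 (SE 1.37) against NestinTK+PBS+, -1.10 (SE 1.46) against NestinTK-GCV+ and -1.46 (SE 1.46) against NestinTK-PBS+ mice. An interval of 1 SE on either side of the pooled value held both no difference and the value of -1.78 seen in the striatum.

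Inhba was at 19.1, 25, 15.6, 23.7 and 30.1 CPM in A1 to A5 and at 9.98 to 79 CPM in controls (median 21.4 CPM). Its log2 difference was -0.19 (SE 0.44), and without P3, the library with 79 CPM, it was 0.13.

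**Figure D4:**
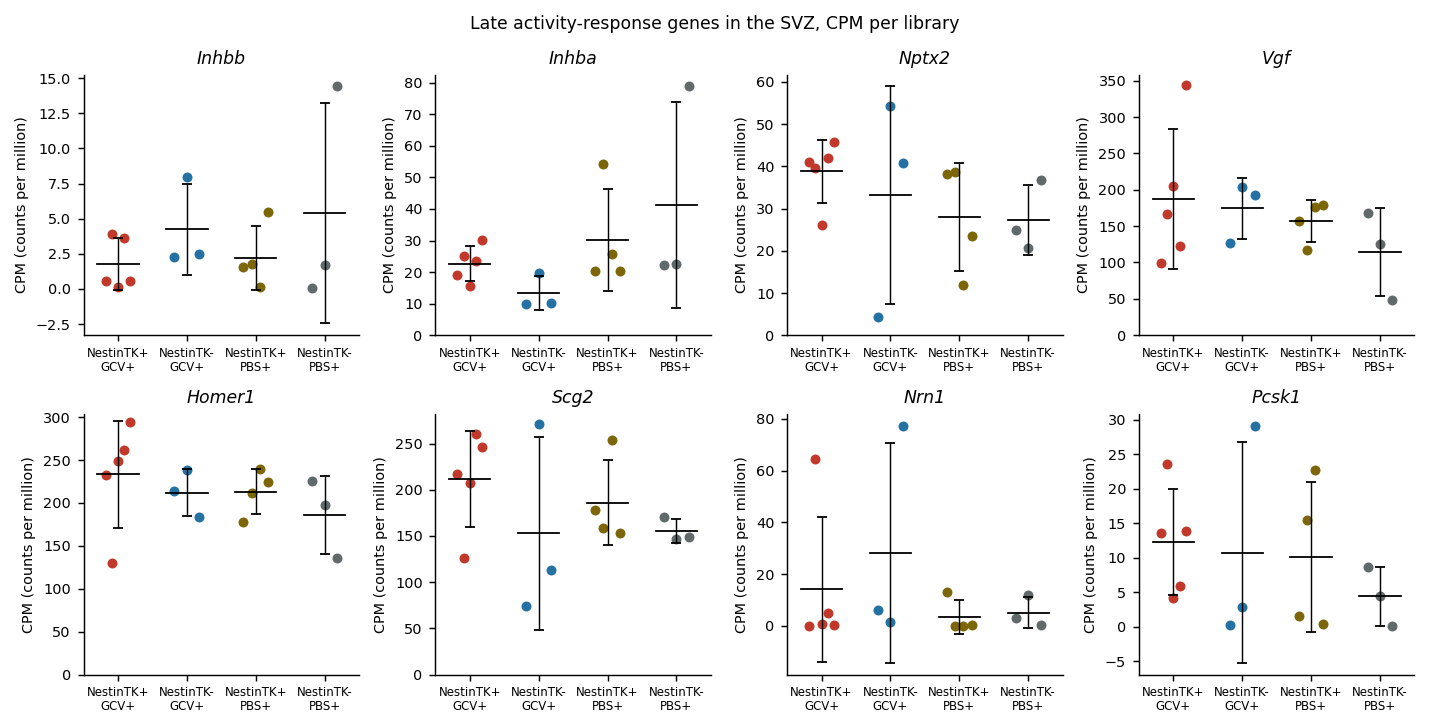
Level of each of the 8 genes in the SVZ in CPM (vertical axes, linear, 1 scale per gene), with 1 point per library, a line at the group mean and bars of 1 SD. All 8 genes overlap between the 5 NestinTK+GCV+ and the 10 control libraries, single libraries set the spread of Inhbb (P3 with 14.4 CPM) and Nrn1 (A2 with 64.4 and G3 with 77.4 CPM).

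The secreted precursors were the most abundant members of the SVZ per length, which is the comparison a whole-transcript library allows: 66.3 ± 23.3 CPM per kilobase of exon for Scg2 and 50.3 ± 15.6 for Vgf in control mice, then 17.1 ± 2.67 for Homer1, 11.6 ± 5.93 for Nptx2, 5.05 ± 10.5 for Nrn1, 4.45 ± 3.38 for Inhba, 1.53 ± 1.86 for Pcsk1 and 0.89 ± 1.04 for Inhbb (SD, n = 10). Of the neighbours in this order only Vgf and Homer1 differed by more than the larger of their SD. In ablated mice the order was the same, from 84.1 ± 20.8 for Scg2 to 0.415 ± 0.434 for Inhbb (SD, n = 5).

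Scg2 was at 216.6, 126.2, 207.7, 260 and 246.6 CPM in A1 to A5 and at 73.9 to 271 CPM in controls (median 156.3 CPM), a log2 difference of 0.45 (SE 0.24, edgeR adjusted p = 0.555). Vgf was at 99.8, 167.3, 204.8, 123.3 and 343.6 CPM against 48.3 to 204.3 CPM, with a log2 difference of 0.46 (SE 0.28) that was 0.15 without A5. The log2 difference of Scg2 in the SVZ was therefore near that in the striatum in size, but its SE was larger and the groups overlapped.

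Pcsk1 and Nrn1 varied widely between libraries. Pcsk1 was at 13.6, 23.6, 4.18, 5.94 and 13.9 CPM in A1 to A5 and at 0.112 to 29.1 CPM in controls. Its log2 difference of 0.71 (SE 0.93) was 0.27 without A2 and 1.13 without G3. Nrn1 was at 0, 64.4, 0.716, 5.00 and 0.12 CPM in A1 to A5 and at 0 to 77.4 CPM in controls (median 2.27 CPM), with a log2 difference of 0.60 (SE 1.46) that was -2.83 without A2 and -1.43 without A2 and G3. The 2 libraries at the upper end of these ranges, A2 and G3, were those with the most cortical markers, whose part in the values was not tested. T3, with only 7.72 CPM of cortical markers, held 22.7 CPM of Pcsk1, close to A2.

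Nptx2 was at 41.1, 39.5, 26.1, 41.9 and 45.7 CPM in A1 to A5 against 4.33 to 54.3 CPM (median 30.7 CPM), a log2 difference of 0.54 (SE 0.40). Homer1 was at 232.6, 130.1, 248.6, 262 and 294.3 CPM against 136.1 to 239.8 CPM (median 212.8 CPM), a log2 difference of 0.31 (SE 0.16). The libraries A3, A4 and A5 lay above every control, and A2, the lowest of the 5, lay below all of them. Without A2 the log2 difference of Homer1 was 0.44, and it was not called.

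Of the related lists in the SVZ, 1 gene was called against pooled controls, where 1.22% of all genes were called lower and 0.373% higher. It was Ptprn2, a membrane protein of dense-core vesicles, with 74.7, 89.4, 73, 14 and 20.9 CPM in A1 to A5 against 4.75 to 38 CPM (log2 difference 1.67, SE 0.43, edgeR adjusted p = 0.347). The call was lost with limma-voom (1.36) and with NestinTK-GCV+ mice as the only controls (1.76). Of the 12 dense-core vesicle genes 9 had differences above 0 there (median 0.12). The same list lay below 0 in 11 of 12 in the striatum, a contrast between tissues that was not tested. Of activin signalling, 0 of 15 genes tested was called by edgeR, DESeq2 or limma-voom, and 1, Inha, had an unadjusted p under 0.05. Inha was at 0.92 (SE 0.42) and was called without P3 (1.14). Gdf11 was at -0.59 (SE 0.60), Acvr2a at 0.28 (SE 0.47), Acvr1b at 0.23 (SE 0.22), Bambi at -1.24 (SE 1.28), Fst at 0.75 (SE 0.80), Furin at -0.58 (SE 0.51) and Smad2 at -0.24 (SE 0.44).

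In the SVZ 5 of 6 pentraxin and AMPA receptor genes and 7 of 8 Homer partners had differences above 0, with medians of 0.30 and 0.41, none called by the 3 tools and 2 and 3 at an unadjusted p under 0.05. Nptxr was at 1.52 (SE 0.59), Gria4 at 0.48 (SE 0.34), Shank1 at 1.35 (SE 0.63) and Homer2 at 0.82 (SE 0.63), and Shank1 and Homer2 were at -0.53 and -0.06 without A2 and G3. Nptxr was called without A1, A3, A4 or G3 (1.77 to 1.86) and Homer2 without T4 (1.48), yet without A2, the ablated library rich in cortical markers, Nptxr was at 0.036, Gria4 at 0.0066 and Homer2 at 0.0033. Shank3 was called only against NestinTK-GCV+ mice, at 1.27 (SE 0.40, edgeR adjusted p = 0.665), and not without A2 and G3 together (0.94) or without A1, A2, A3, G1 or G3 alone (0.98 to 1.27). Of the late genes 11 of 14 could be tested and none was called or had an unadjusted p under 0.05 in edgeR, Nts being at -2.17 (SE 1.08, called by limma-voom at -3.79 and without A5 at -3.97) and Pim1 at -1.78 (SE 0.88). Of 14 immediate early genes 10 lay below 0 (median -0.34) and none was called or had an unadjusted p under 0.05 in edgeR, with Fos at -0.47 (SE 0.99), Arc at -0.33 (SE 0.66), Egr1 at 0.08 (SE 0.31) and Npas4 at -0.32 (SE 0.68).

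In the comparisons among SVZ controls no member was called by edgeR either. The mice were the same as in the striatum, so that GCV and the transgene were again largely mixed with the mouse number series. With GCV in NestinTK- mice, where 0.794% of all genes were called lower and 0.269% higher, Inhba had the 1 unadjusted p under 0.05 (4.72% of all genes lower, 2.93% higher). It was at 9.98, 19.6 and 10.3 CPM in G1 to G3 and at 22.3, 22.7 and 79 CPM in P1 to P3, without overlap. The share of all genes apart between these groups was not counted, so that nothing is read from it. The log2 difference was -1.66 (SE 0.58, unadjusted p = 0.0104, edgeR adjusted p = 0.646), DESeq2 called it (-1.68), and it was called without P1, P2, G2 or T2 (-2.10 to -1.66) but was at -0.81 and not called without P3, the library with 79 CPM. Without the libraries high in Ttr, P3 is the only NestinTK-PBS+ library left, assumed to vary like the other groups, and Inhba was called at -2.60 and Vgf at 1.81, while Vgf was at 0.55 with all libraries and at 0.18 without P3. With the transgene under PBS (0.0733% lower, 0.122% higher) no member had an unadjusted p under 0.05 (0.953% of all genes lower, 1.74% higher) or was called by DESeq2 or limma-voom, and Inhbb was at -1.37 (SE 1.55) and at 1.17 without P3.

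Against the control groups one by one, 0 of 8 members was called in the SVZ in each of the 3 comparisons, with background shares of 0.574% lower and 0.366% higher against NestinTK-GCV+, 0.965% and 0.226% against NestinTK+PBS+ and 1.43% and 0.489% against NestinTK-PBS+ mice. None had an unadjusted p under 0.05 in edgeR, where the shares of all genes were 3.27% and 4.18%, 4.4% and 2.73%, and 5.48% and 4.47% in the same order, and neither DESeq2 nor limma-voom called one. Scg2 was at 0.57 against NestinTK-GCV+ mice, at 1.35 and called without G2, and at 0.24 without G1 and 0.37 without G3. The interaction of transgene and GCV called no member by any of the 3 tools (0.391% lower, 0.446% higher) and none had an unadjusted p under 0.05 in edgeR (2.36% and 2.73% of all genes), Inhbb being at 0.26 (SE 2.16) and Scg2 at 0.39 (SE 0.48), the latter at 1.15 and called without G2 but at 0.053 without G1 and 0.18 without G3.

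Within groups, few pairs of members varied together from library to library. Over the 28 pairs of members, the correlation of their log2 CPM deviations from the 4 group means had a median of -0.089 in the striatum, with a range of -0.647 to 0.641, and of 0.136 in the SVZ, with a range of -0.577 to 0.554, and 2 pairs in each tissue were over 0.5 (Pearson's r over 15 libraries, which the genes share together with their depth). Homer1 and Pcsk1 had the highest r in the striatum, and Inhbb and Inhba in the SVZ.

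The genes most like Inhbb in this measure in the striatum, among 8970 with at least 10 CPM on average, were Inpp5j, Mrps5, 0610010F05Rik, Blzf1 and 2300009A05Rik, with Pearson's r from 0.81 to 0.845 and Spearman's rho from 0.768 to 0.843. In the SVZ, among 9747 genes, they were Arl6ip4, Rita1, Rnase4, Pfdn4 and Rbx1, with r from 0.881 to 0.936 and rho from 0.871 to 0.921. The lists shared no gene, and neither held another member. Without the 2 libraries in which Inhbb lay farthest from its median (P2 and T3 in the striatum, P1 and P3 in the SVZ), r was 0.741 to 0.852 and 0.818 to 0.92, and since the highest values were picked out of all genes ranked, they describe the ranking only.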

How the data were processed

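RNA of the striatum and SVZ of 15 mice was analysed, 30 libraries in all. The authors deposited per-gene read counts that had not been normalized. SMART-Seq v4 was used for the SVZ and QuantSeq 3′ FWD, which counts transcript ends, for the striatum, so that levels were not compared between tissues. Single-end reads were trimmed with Trimmomatic (0.36 in the submitters' processing notes), aligned to mm10 with STAR 2.5.3a and Gencode M16, and counted with featureCounts. Positions were taken from GENCODE vM21 on the same build.

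Each tissue was fitted apart with edgeR 4.0.16 (R 4.3.3). A gene was kept when 3 libraries or more exceeded 1 CPM. TMM factors and quasi-likelihood tests were used, with Benjamini-Hochberg adjustment over every gene kept. The 3 control groups were pooled, as in the study, and also kept apart in a fit with 4 group means. Calls needed a 2-fold change and an unadjusted p no higher than 0.01. Log2 CPM used a prior count of 2. The script was tested on simulated data. Intervals of summed counts are exact (binomial, conditional on the total) and cover counting error only. Libraries of 1 group differed by more than sampling noise in all 22 pairs per tissue, so that all were kept as separate samples.

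The 8 genes and all lists were chosen with earlier results of these data known. Named are the 8 members, every list gene called in a comparison given, the 2 genes with the largest absolute log2 fold change against pooled controls in a list with none called there, 4 immediate early genes (Fos, Arc, Egr1 and Npas4), and the 5 genes most like Inhbb in each tissue. Replicates are separate mice, and all comparisons with ablated mice share the same 5 ablated libraries per tissue. Library numbers up to 10 belong to GCV and later ones to PBS, so that treatment and numbering cannot be told apart. All NestinTK-PBS+ mice, G1 and T3 were of the mouse number series 34, and all other mice of the series 40. DESeq2 1.42.0 and limma 3.58.1 (voom), RLE factors, other filters, single libraries left out and the mouse number series (34 or 40) as a term were tried as alternatives, and correlations were computed with numpy 2.4.6 and figures with matplotlib 3.10.9.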

Additional observations from a re-analysis of the deposited data

Results flagged for a closer look

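Within groups of 4 or 5 libraries, the gap of the highest or lowest library to its nearest neighbour was set against Dixon's 95% limit in 32 combinations of gene, tissue and group. For normally distributed values chance flags about 1 in 20 such groups, but CPM of genes such as Nrn1 are skewed, so that this rate need not hold. In all, 4 were past the limit. Nrn1 accounted for 3 of them: in the SVZ A2 stood at 64.4 CPM, with the next NestinTK+GCV+ library at 5.00 CPM, and T1 at 13.2 CPM, with the next NestinTK+PBS+ library at 0.317 CPM, and in the striatum T4 stood at 38.2 CPM above the next NestinTK+PBS+ library at 6.83 CPM. A2 was the ablated SVZ library with the most cortical markers (560.8 CPM), T1 one of those with over 1% of counts on Ttr, and T4 the striatum library with the fewest spiny neuron markers, and the part of these features was not tested. Inhba was the fourth, at 54.3 CPM in the SVZ library T2 with the next NestinTK+PBS+ library at 25.7 CPM.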

How the results depend on the processing

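Few reads limit Inhbb and Pcsk1 in the striatum, where 3 counts are 0.639 to 1.14 CPM, and the spread between libraries limits the SVZ, where the common coefficient of biological variation was 0.939 against 0.251 in the striatum. Of the log2 differences of members and list genes under alternatives other than leaving out 1 library, 960 kept direction and side of the threshold, 48 changed sign, 53 lost and 14 gained a call, and 3 moved by more than the spread. With 1 library left out these were 1674, 53, 66, 20 and 2. The alternatives on marker-rich libraries were chosen after seeing the data, and where a value changed the cause was not tested. The number of members called in the striatum against pooled controls fell from 1 to 0 with limma-voom and with NestinTK-GCV+ mice as the only controls. Against NestinTK+PBS+ mice it fell from 1 to 0 with limma-voom and without the libraries rich in cortical markers (with or without T4), and against NestinTK-PBS+ mice to 0 with limma-voom and with the mouse number series as a term and to 2 with no filter. It rose from 0 to 1 with no filter for GCV, the transgene and the interaction, and without the libraries rich in cortical markers for GCV, the transgene, the interaction and against NestinTK-GCV+ mice (without T4 as well, for all of these but the transgene). In the SVZ it rose from 0 to 1 for GCV with DESeq2, to 2 for GCV and to 1 against NestinTK-PBS+ mice without the libraries high in Ttr, which leaves P3 as the only NestinTK-PBS+ library, and to 1 for the transgene and the interaction with the mouse number series as a term. With 1 library left out the number ranged from 0 to 1 for GCV, the interaction and against NestinTK-GCV+ mice in both tissues, and for the transgene and against both PBS groups in the striatum. Of the 5 genes most like Inhbb in the striatum 3 were also among the 5 by Spearman's rho. With limma-voom, these log2 differences changed sign, in the SVZ (ablated against pooled controls) Inhba 0.10, Nrn1 -0.17 and Npas4 0.24, in the SVZ (GCV in NestinTK- mice) Inhbb 1.29 and Nptx2 -0.48, in the SVZ (interaction) Inhbb -1.37, in the striatum (ablated against pooled controls) Cadps2 0.00049 and Npas4 0.14, in the striatum (transgene under PBS) Inhbb 0.027. With the mouse number series as a term, these log2 differences changed sign, in the SVZ (ablated against pooled controls) Inhba 0.022, Nrn1 -0.081 and Egr1 -0.21, in the SVZ (GCV in NestinTK- mice) Nptx2 -1.81 and Nrn1 -0.60, in the striatum (GCV in NestinTK- mice) Inhba 0.16 and Nrn1 -0.55, in the striatum (transgene under PBS) Homer1 0.25 and Scg2 0.032, in the striatum (ablated against NestinTK-PBS+) Crh -0.21. Without the libraries high in Ttr, these log2 differences changed sign, in the SVZ (ablated against pooled controls) Npas4 0.063, in the SVZ (GCV in NestinTK- mice) Nptx2 -0.18 and Scg2 0.014. With NestinTK-GCV+ mice as the only controls, these log2 differences changed sign, in the SVZ (ablated against pooled controls) Inhba 0.90, Nrn1 -0.68, Acvr2a -0.20, Furin 0.39, Fos 0.047 and Egr1 -0.16, in the striatum (ablated against pooled controls) Gdf11 0.045 and Bambi 1.05. With mice of the number series 40 only, these log2 differences changed sign, in the SVZ (ablated against pooled controls) Inhba 0.0057, Nrn1 -0.096 and Egr1 -0.21. Without the libraries rich in cortical markers, these log2 differences changed sign, in the SVZ (ablated against pooled controls) Nrn1 -1.43, Shank1 -0.53 and Homer2 -0.055, in the SVZ (GCV in NestinTK- mice) Scg2 0.16, Nrn1 -0.48 and Pcsk1 -1.49, in the SVZ (interaction) Inhbb -0.63, in the striatum (ablated against pooled controls) Cadps2 0.074, in the striatum (GCV in NestinTK- mice) Inhba 0.064. Without these and the library poorest in spiny neuron markers, these log2 differences changed sign, in the striatum (ablated against pooled controls) Cadps2 0.32 and Gdf11 0.039, in the striatum (GCV in NestinTK- mice) Inhba 0.063, in the striatum (transgene under PBS) Homer1 0.20 and Scg2 0.11, in the striatum (interaction) Bdnf 0.14. With 1 library left out at a time, signs changed within these ranges: in the SVZ (ablated against NestinTK+PBS+) Inhbb -0.69 to 0.76, in the SVZ (ablated against pooled controls) Nrn1 -2.83 to 2.01, Smad2 -0.54 to 0.013, Shank1 -0.73 to 1.64, Egr1 -0.34 to 0.25 and Inhba -0.30 to 0.13, in the SVZ (interaction) Inhbb -2.27 to 1.17, in the SVZ (transgene under PBS) Nptx2 -0.25 to 0.23, Nrn1 -5.67 to 1.07, Inhbb -2.22 to 1.17, Inhba -0.96 to 0.33 and Homer1 -0.082 to 0.27, in the SVZ (GCV in NestinTK- mice) Scg2 -0.82 to 0.27, Nptx2 -0.39 to 0.75, Nrn1 -0.48 to 3.98, Pcsk1 -1.51 to 2.08, Inhbb -1.25 to 2.19 and Homer1 -0.056 to 0.30, in the SVZ (ablated against NestinTK-PBS+) Inhbb -2.06 to 1.08, in the striatum (ablated against pooled controls) Npas4 -0.40 to 0.16 and Gdf11 -0.39 to 0.044, in the striatum (transgene under PBS) Inhbb -0.34 to 0.72, Homer1 -0.23 to 0.18, Scg2 -0.16 to 0.14, Nptx2 -0.52 to 0.18 and Vgf -0.088 to 0.38, in the striatum (GCV in NestinTK- mice) Inhba -0.25 to 0.071, Vgf -0.45 to 0.017 and Inhbb -0.99 to 0.21. Members in the striatum of ablated mice, described without a test, are counted above only by whether they moved by more than the spread. Against pooled controls, Inhba was at -0.22 with NestinTK-GCV+ mice as the only controls, at -0.082 without G3, T2 and T4 and at -0.033 to 0.15 with 1 library left out, Homer1 at 0.072 with the mouse number series as a term, 0.062 with mice of the number series 40 only and -0.14 to 0.036 with 1 library left out, and Nrn1 at 0.64 with limma-voom, 1.39 without G3, T2 and T4 and -0.64 to 0.36 with 1 library left out. No paired comparison of groups was possible because the groups are different mice. The pairing of the 2 tissues within a mouse was not used, as each tissue was fitted apart.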
